A study of Mus musculus with 12 samples.

Results

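The elastic fibre and fibril-associated matrix genes are 10 genes taken by name from the authors' table, which lists 16971 genes: *Eln*, *Fbn1*, *Mfap4*, *Mfap5*, *Fbln1*, *Fbln2*, *Fbln5*, *Lox*, *Loxl1* and *Dpt*. They were chosen by name with earlier results of these data known, and the measured values that bore on the choice were the 3 group means of the table. The levels of the 10 genes and their ratios between groups are therefore given as a description, with no test. All 10 were found, and all 10 had normalized counts that summed to at least 10 over the libraries, a minimum that 12889 of the listed genes met. *Mfap5* and *Lox* met it only through their day 0 libraries, so nothing is read from their being counted as lower after BDL.

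GFP(+) cells were sorted by FACS from livers of C57BL/6 mice of the genotype Prom1CreERT2-nLacZ/+;Rosa26Lsl-GFP/+ and their mRNA was sequenced. In these mice the Prom1 locus drives a tamoxifen-activated Cre, so that cells with *Prom1* activity at the time of injection, and all of their progeny, carry GFP. Adult mice, 6 weeks old per the methods, received tamoxifen 7 days before surgery, which holds for every group. The groups were day 0 (called sham in the labels and described as before surgery in the methods), bile duct ligation (BDL) day 3 and BDL day 14. BDL blocks the outflow of bile and leads to fibrosis around the portal tracts. The labels describe 3, 3 and 6 samples, and the authors' means rest on 3, 3 and 4 libraries in the same order. The methods also give a different mix of male and female mice in each group, and the part of sex in the values was not tested.

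The authors' table gives 1 mean per group for each gene, in counts normalized by the upper quartile method, and no value for a named library. It also gives a geometric mean over the 10 libraries and, for the highest library of each gene, a value without a name. No SD over libraries and no replicate test could be computed, and the depth of each library is unknown. In place of an SD, an approximate spread was worked out after the table had been seen. The distance between the group means and the geometric mean gives the SD of the log2 values within groups if the spread is log-normal and of 1 size in the 3 groups. An approximate SE of each log2 ratio follows from that SD and the number of libraries, and it is written after ± in what follows. The lowest group means were 0.128 (day 0), 0.0729 (BDL day 3) and 0.0610 (BDL day 14), shared by 984, 1284 and 550 genes. Means of up to 4 times this value (0.512, 0.292 and 0.244) were read as the floor, assuming that the lowest mean reflects an offset of about 1 read per library. Where a mean lay at the floor, the fold is a lower bound and was computed against the floor itself.

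Elastic fibres let arteries, veins, lung and skin recoil after stretch. Their core is elastin, which is secreted as the soluble monomer tropoelastin and laid down on a scaffold of microfibrils built from fibrillin. Fibulins bring tropoelastin to this scaffold, microfibril-associated proteins bind to it, and lysyl oxidases cross-link the monomers into an insoluble polymer. In the liver, elastic fibres lie in the walls of portal vessels and in the connective tissue of the portal tracts, and portal fibroblasts and smooth muscle cells are among the cells known to make them. Dermatopontin is no part of the elastic fibre core. It sits on collagen fibrils, where it binds the proteoglycan decorin.

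*Lox* was left out of the promoter search, so whether it has an entry was not tested. *Eln*, *Mfap4*, *Mfap5* and *Loxl1* had no entry in the RefSeq promoter table (GRCm38.p6). Entries were found for 5 of the 10 genes, *Dpt*, *Fbln1*, *Fbln2*, *Fbln5* and *Fbn1*, with 7 promoters in all. The 250 bases before the start of transcription are shown for 3 of them, because the genes were lower together after BDL and these starts lie near or beyond the annotated ends of their genes. Capitals mark the GC box, GGGCGG on either strand. *Dpt* is read from chr1:164796413-164796662 on the plus strand, *Fbln1* from chr15:85205699-85205948 on the plus strand and *Fbln5* from chr12:101819120-101819369 on the minus strand.
Dpt: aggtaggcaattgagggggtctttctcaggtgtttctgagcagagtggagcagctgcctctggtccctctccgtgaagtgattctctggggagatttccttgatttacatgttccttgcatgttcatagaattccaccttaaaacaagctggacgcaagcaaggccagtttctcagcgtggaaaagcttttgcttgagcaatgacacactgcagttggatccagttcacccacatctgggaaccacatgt
Fbln1: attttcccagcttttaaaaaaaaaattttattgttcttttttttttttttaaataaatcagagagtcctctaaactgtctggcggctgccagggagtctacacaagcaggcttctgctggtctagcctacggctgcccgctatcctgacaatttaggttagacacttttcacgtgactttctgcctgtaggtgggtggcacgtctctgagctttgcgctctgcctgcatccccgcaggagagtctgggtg
Fbln5: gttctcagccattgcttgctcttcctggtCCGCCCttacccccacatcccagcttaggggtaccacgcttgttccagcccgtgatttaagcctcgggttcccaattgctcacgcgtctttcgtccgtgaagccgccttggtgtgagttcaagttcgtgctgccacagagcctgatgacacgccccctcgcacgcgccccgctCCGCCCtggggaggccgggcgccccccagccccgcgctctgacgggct
The GC content of these windows was 48.8% for *Dpt*, 46.4% for *Fbln1* and 65.2% for *Fbln5*, beside a median of 52.4% over all promoters of the table. A GC box was present in 4 of the 7 promoters of these genes, 1 each of *Fbln1*, *Fbln2*, *Fbln5* and *Fbn1*, and in 32.7% of all 32851 promoters of the table. The *Fbln5* window shown holds 2, and the one of *Fbln1* lies in its second listed promoter, which is not shown. Searched on both strands, the letters TATAAA for a TATA box, TGANTCA for an AP-1 site and GGAATG for a TEAD site, and also the CArG box, the binding element of serum response factor, occurred in 0 of the 7. Over all promoters they occurred in 12.4%, 6.75%, 12.6% and 1.47%. These are matches of letters in 1 window per start, and the table does not measure binding.

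On BDL day 3 each of the 10 means was below its day 0 mean by over 4-fold, beside 10.2% of all genes kept, from a log2 ratio of -2.65 for *Lox* to a bound of at least 283-fold for *Dpt*, which was at the floor. The median log2 ratio was -4.80, also with the genes at the floor set to their bounds. The median over all genes kept was -0.02. Together the 10 genes went from 306 normalized counts at day 0 to 8.27 on BDL day 3, which is 2.70% of day 0. On BDL day 14 the sum was 41.6, or 13.6% of day 0, and the median log2 ratio to day 0 was -2.84. Between BDL day 3 and BDL day 14 the median log2 ratio was 2.36, and 2.35 with the genes at the floor set to their bounds. By group means, all 10 genes were highest at day 0, lowest on BDL day 3 and in between on BDL day 14. The share of all genes with this order was not counted. The step from BDL day 3 to BDL day 14 exceeded 2 approximate SE in 5 of the 10, beside 12.7% of all genes. For *Mfap5* the place of BDL day 14 below day 0 rested on 1 library.

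**Figure D1:**
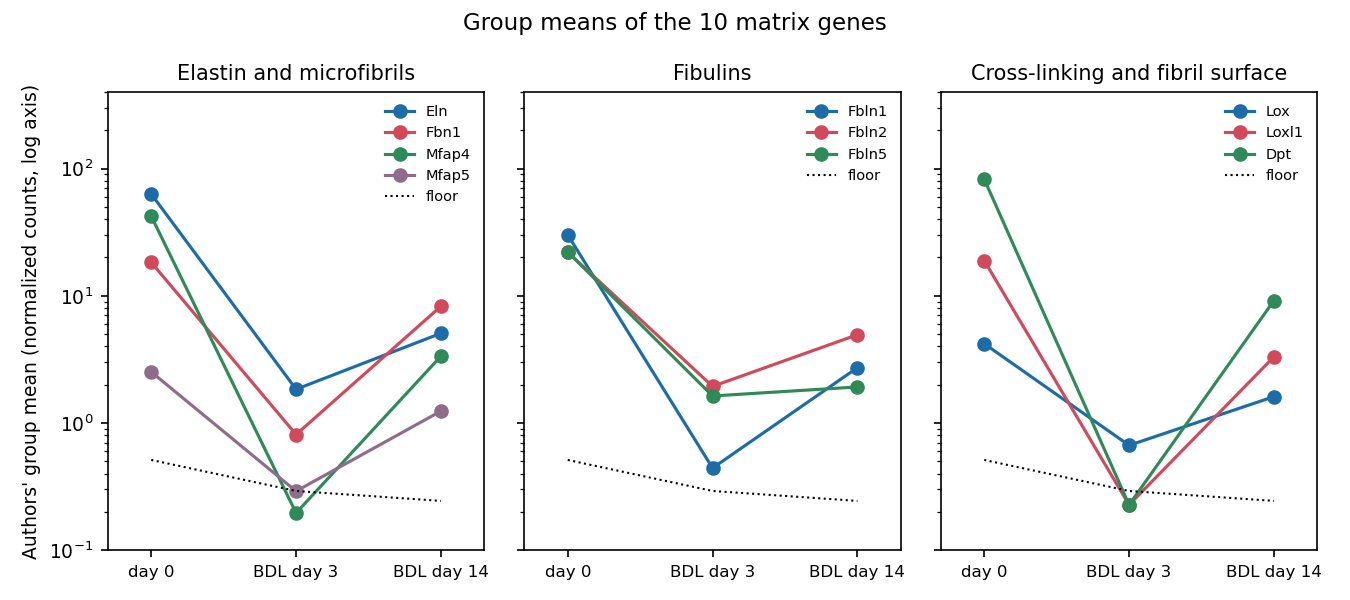
Authors' group means of the 10 genes (vertical axis, normalized counts on a log axis) in the order day 0, BDL day 3, BDL day 14, in 3 panels by role. Points are group means, lines join the means of 1 gene, and the dotted line is the floor of each group. All 10 genes are highest at day 0 and lowest on BDL day 3, where *Dpt*, *Mfap4*, *Loxl1* and *Mfap5* reach the floor of 0.292.

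*Eln* encodes tropoelastin, the monomer of elastin, and lies on chromosome 5 from 134702593 to 134747323 on the minus strand (GRCm38). The authors' mean of *Eln* was 63.1 normalized counts in day 0 cells, 1.84 in BDL day 3 cells and 5.07 in BDL day 14 cells. The day 0 mean was above both BDL means. The log2 ratio to day 0 was -5.10 ± 1.22 on BDL day 3 (34.3-fold lower) and -3.64 ± 1.14 on BDL day 14 (12.4-fold lower). Both ratios exceeded 2 approximate SE. From BDL day 3 to BDL day 14 the log2 ratio was 1.46 ± 1.14, which is within 2 approximate SE. The highest *Eln* library held 110 normalized counts. It can only be a day 0 library, because the sums of the other groups are too small for it, and it made up 58.1% of the day 0 sum. Leaving that library out gave a day 0 mean of 39.7 and log2 ratios of -4.43 and -2.97.

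*Fbn1* encodes fibrillin-1, the backbone of the microfibril (chromosome 2, 125300594 to 125507993, minus strand). Its mean was 18.3 at day 0, 0.811 on BDL day 3 and 8.27 on BDL day 14. The BDL day 14 mean thus stood at 45.2% of day 0, where *Eln* stood at 8.03%. On the log2 scale the *Fbn1* ratio to day 0 was -4.50 ± 1.27 on BDL day 3 and -1.15 ± 1.18 on BDL day 14, the latter within 2 approximate SE. The log2 ratio of BDL day 14 to BDL day 3 was 3.35 ± 1.18 (10.2-fold higher). The highest *Fbn1* library, with 26.3 normalized counts, could belong to day 0 or to BDL day 14. Per kilobase of exon, the ratio of the *Fbn1* mean to the *Eln* mean was 0.194 at day 0, 0.294 on BDL day 3 and 1.09 on BDL day 14. The gap between the BDL day 14 to day 0 ratios of these genes was 2.49 on the log2 scale with an approximate SE of 1.64 if the genes vary independently, so it lay within 2 approximate SE.

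*Mfap4*, a microfibril-associated protein that binds elastin and fibrillin, is on chromosome 11 from 61485431 to 61488900 (plus strand). In the order day 0, BDL day 3, BDL day 14, its means were 42.2, 0.196 and 3.35 normalized counts. The BDL day 3 mean was at the floor, so *Mfap4* was at least 145-fold lower on BDL day 3 than before BDL, and at least 11.5-fold higher on BDL day 14 than on BDL day 3. Its log2 ratio of BDL day 14 to day 0 was -3.66 ± 0.79, which left 7.94% of the day 0 mean. The highest library, of day 0, held 74.6 normalized counts or 58.9% of the day 0 sum. Without it the bound on BDL day 3 was 89.0-fold, and on BDL day 14 the log2 ratio was -2.96 and the share 12.9%. *Mapk7*, a protein-coding gene on the opposite strand that overlaps *Mfap4*, had means of 15.0, 17.3 and 15.2. Whether strand was used in counting is not given in the sources used here.

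*Mfap5* encodes another microfibril-associated glycoprotein (chromosome 6, 122505845 to 122529290, plus strand). It had a mean of 2.52 at day 0, which per kilobase of exon was the lowest of the 10, and means of 0.291 and 1.24 on BDL day 3 and BDL day 14. With its BDL day 3 mean at the floor, *Mfap5* lay at least 8.64-fold below day 0. Its approximate SD of 2.17 was the largest of the 10, and the log2 ratio of BDL day 14 to day 0, -1.02 ± 1.66, was within 2 approximate SE. A day 0 library of 5.79 held 76.6% of the *Mfap5* signal of day 0. Without it the day 0 mean was 0.885, below the BDL day 14 mean, the bound on BDL day 3 was 3.03-fold, and the log2 ratio on BDL day 14 became 0.49. The direction of *Mfap5* on BDL day 14 thus rested on 1 library.

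The fibulins are secreted calcium-binding glycoproteins of elastic fibres and basement membranes. *Fbln5* (chromosome 12, 101746565 to 101819055, minus strand) binds tropoelastin and is needed to assemble elastic fibres. It had means of 22.1 at day 0, 1.63 on BDL day 3 and 1.92 on BDL day 14. Its BDL groups lay close to each other, with a log2 ratio between them of 0.24 ± 0.28, the smallest of the 10 genes. The log2 ratios to day 0 were -3.76 ± 0.30 and -3.52 ± 0.28. The approximate SD of *Fbln5*, 0.37, was the smallest of the 10. The highest library, of day 0, held 33.8, which is 51.0% of the day 0 sum, and leaving it out gave log2 ratios of -3.32 and -3.08.

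*Fbln1*, found in the core of elastic fibres and in basement membranes, is on chromosome 15 from 85205949 to 85286535 (plus strand). Its day 0 mean was 30.1, and the means after BDL were 0.442 on day 3 and 2.72 on day 14. The log2 ratio to day 0 was -6.09 ± 1.15 on BDL day 3 (68.1-fold lower) and -3.47 ± 1.07 on BDL day 14 (11.1-fold lower). *Fbln1* was 6.15-fold higher on BDL day 14 than on BDL day 3, a log2 ratio of 2.62 ± 1.07. Per kilobase of exon, the ratio of the *Fbln1* to the *Fbln5* mean was 2.15 at day 0, 0.429 on BDL day 3 and 2.24 on BDL day 14. Their BDL day 14 to day 0 log2 ratios differed by 0.06 with an approximate SE of 1.11 if independent. No SE was computed for the gap on BDL day 3.

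*Fbln2*, a fibulin of basement membranes and vessel walls (chromosome 6, 91212455 to 91272540, plus strand), had means of 22.0, 1.94 and 4.94. Per kilobase of exon, its BDL day 3 level was 0.305, within 2 approximate SE of the *Fbln5* level in that group. The log2 ratio to day 0 was -3.50 ± 0.82 on BDL day 3 and -2.15 ± 0.77 on BDL day 14, and 1.35 ± 0.77 between the BDL groups. *Fbln2* and *Fbln5* had nearly equal day 0 levels per kilobase, with a ratio of 1.08, and on BDL day 14 the ratio was 2.79. A day 0 library of 38.9 held 58.9% of the day 0 sum of *Fbln2*, and leaving it out gave log2 ratios of -2.80 and -1.46, the latter under 4-fold. The BDL day 14 to day 0 log2 ratios of *Fbln2* and *Fbln5* differed by 1.37 with an approximate SE of 0.82 if independent, within 2 approximate SE.

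*Lox* and *Loxl1* encode copper-dependent enzymes that oxidize lysines of elastin and collagen so that the chains cross-link, and *Loxl1* acts mainly on elastin. *Loxl1* (chromosome 9, 58287738 to 58313186, minus strand) had a mean of 18.9 before BDL, 0.227 on day 3 after it and 3.31 on day 14. On BDL day 3 it was at the floor, which puts it at least 64.8-fold below day 0. Its log2 ratio of BDL day 14 to day 0 was -2.51 ± 0.90, and it was at least 11.4-fold higher on BDL day 14 than on BDL day 3. In *Loxl1*, 54.7% of the day 0 sum came from 1 library of 31.0 normalized counts. Leaving it out gave a bound of 43.8-fold on BDL day 3 and a log2 ratio of -1.96 on BDL day 14.

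*Lox* (chromosome 18, 52516067 to 52529867, minus strand) had means of 4.20, 0.667 and 1.61, in the order day 0, BDL day 3, BDL day 14. Its log2 ratios to day 0, -2.65 ± 1.39 on BDL day 3 and -1.38 ± 1.30 on BDL day 14, were within 2 approximate SE. The highest *Lox* library, with 6.25, could be a day 0 or a BDL day 14 library. Per kilobase of exon, the *Lox* mean was 0.153 times the *Loxl1* mean at day 0 and 0.336 times on BDL day 14. Their BDL day 14 to day 0 log2 ratios differed by 1.13 with an approximate SE of 1.58 if independent, within 2 approximate SE. *Loxl1* was at the floor on BDL day 3 and *Lox* was not.

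*Dpt* encodes dermatopontin (chromosome 1, 164796644 to 164824266, plus strand) and had a day 0 mean of 82.5 normalized counts, the highest of the 10 per kilobase as well. Its mean was 0.227 on BDL day 3, at the floor, and 9.16 on BDL day 14. *Dpt* was at least 283-fold lower on BDL day 3 than at day 0 and at least 31.4-fold higher on BDL day 14 than on BDL day 3, the largest bounds of the 10 in both comparisons. The log2 ratio of BDL day 14 to day 0 was -3.17 ± 0.81 (9.01-fold lower). The highest library held 85.9, or 34.7% of the day 0 sum, so the remaining day 0 libraries had a mean of 80.8 and none can lie below 75.5. The day 0 libraries of *Dpt* thus lay close together, and its approximate SD of 1.06 does not describe them. Antisense transcripts are annotated across *Dpt* (*Gm32569*), *Eln* (*Gm30003*) and *Lox* (*AC161119.1*), and the coding gene *Gm9913* lies on the other strand of *Fbn1*.

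The order of the 10 genes was taken per kilobase of their merged exons. At day 0, *Dpt* had 47.9 normalized counts per kilobase and *Mfap4* had 22.0, followed by *Eln* with 7.79, *Fbln1* with 6.89, *Loxl1* with 5.73, *Fbln2* with 3.45 and *Fbln5* with 3.20. *Fbn1* (1.51 per kilobase), *Lox* (0.879) and *Mfap5* (0.702) were the lowest. No day 0 library of *Dpt* can lie below 43.8 per kilobase and no library of *Mfap4* exceeded 38.8, so these neighbours cannot overlap. None of the other 8 neighbouring pairs differed by over 2 approximate SE. No order was read on BDL day 3, where 4 of the 10 lay at the floor. On BDL day 14 the levels per kilobase were 5.31 for *Dpt*, 1.74 for *Mfap4* and 1.00 for *Loxl1*, and the log2 difference between *Dpt* and *Mfap4* was 1.61 ± 0.74. That SE rests on the *Dpt* SD, and it was not used to separate these genes. The other 8 neighbouring pairs were within 2 approximate SE. *Dpt* made up 47.9% of the summed level per kilobase of the 10 genes at day 0 and 45.3% on BDL day 14. The share of *Fbn1* was 1.51% at day 0 and 5.81% on BDL day 14, and that of *Mfap4* was 22.0% and 14.9%.

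By group means, the share of the day 0 mean found on BDL day 14 differed over the 10 genes. Between *Mfap5* and *Mfap4* the gap was 2.63 on the log2 scale, with an approximate SE of 1.84 if independent. It lay within 2 approximate SE. *Mfap5* stood at 49.2% of its day 0 mean, *Fbn1* at 45.2%, *Lox* at 38.3% and *Fbln2* at 22.5%. *Loxl1* was at 17.5% and *Dpt* at 11.1%, and *Fbln1*, *Fbln5*, *Eln* and *Mfap4* were between 7.94% and 9.04%. Without the highest day 0 library of each, *Eln*, *Mfap4*, *Fbln1* and *Fbln5* were between 11.5% and 12.9%, and *Fbln2* and *Loxl1* were at 36.3% and 25.9%. In the same setting *Dpt* was at 11.3% and *Mfap5* at 140%, which is above day 0. The genes with the highest shares, *Mfap5*, *Fbn1* and *Lox*, were also those whose log2 ratio on BDL day 14 was within 2 approximate SE.

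The counts of genes past a fold are given beside the share of all 12889 genes kept that passed it. Since the names were chosen with these ratios known, nothing is read from the difference. On BDL day 3, all 10 were lower than at day 0 by over 1.5-fold (29.2% of all genes) and by over 4-fold (10.2%). *Dpt*, *Eln*, *Fbln1*, *Fbn1*, *Loxl1* and *Mfap4*, 6 of the 10, were lower by over 16-fold (2.23%). All 10 were also lower on BDL day 14 than at day 0 by over 1.5-fold (28.8%), 7 by over 4-fold (9.25%) and 0 by over 16-fold (2.13%). The 3 that were not 4-fold lower were *Fbn1*, *Lox* and *Mfap5*. With each gene's highest day 0 library left out, 9 were over 4-fold lower on BDL day 3, and on BDL day 14 the counts were 9 past 1.5-fold and 5 past 4-fold. Compared with BDL day 3, 9 were higher on BDL day 14 by over 1.5-fold (21.2%), *Fbln5* being the exception. *Dpt*, *Fbln1*, *Fbn1*, *Loxl1*, *Mfap4* and *Mfap5* were higher by over 4-fold (6 of 10, beside 5.90% of all genes). A pseudocount of 1 on the means made this last count 2, and left 8 genes over 4-fold lower on BDL day 3 and 6 on BDL day 14. With the genes at the floor set to their bounds, the counts for BDL day 3 and between the BDL groups were the same.

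**Figure D2:**
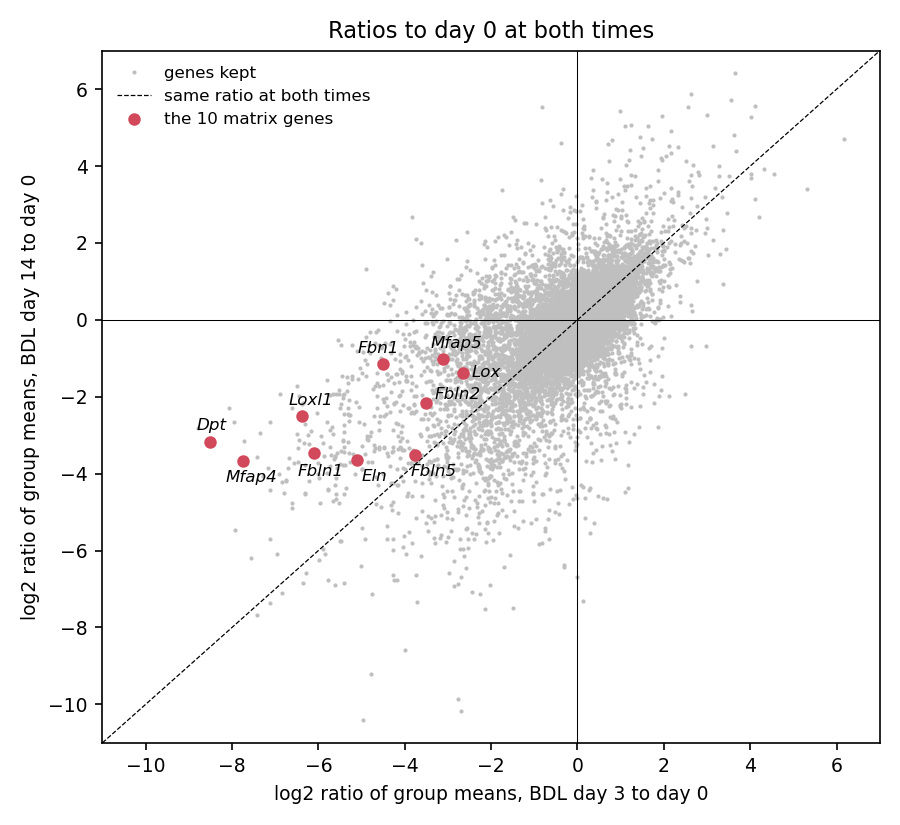
Log2 ratio of the authors' group means of BDL day 3 to day 0 (horizontal axis) and of BDL day 14 to day 0 (vertical axis), for the 12889 genes kept (grey) and the 10 matrix genes (red, named). The dashed line marks the same ratio at both times. The 10 genes lie left of and below 0 and above the dashed line, with *Fbln5* nearest to it at -3.76 and -3.52, and both axes share the day 0 libraries. *Dpt*, *Mfap4*, *Loxl1* and *Mfap5*, at the floor on BDL day 3, are drawn at their raw ratios.

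Measured against the approximate SE, 8 of the 10 genes were lower on BDL day 3 than at day 0 by over 2 SE, as were 15.5% of all genes. *Lox* and *Mfap5* were not. Fewer, 7 of 10, were lower on BDL day 14 than at day 0 by that margin (17.5% of all genes), *Fbn1* joining the exceptions. *Dpt*, *Fbln1*, *Fbn1*, *Loxl1* and *Mfap4* were higher on BDL day 14 than on BDL day 3 by over 2 approximate SE, 5 of 10 beside 12.7% of all genes. The *Dpt* SD does not describe its close day 0 libraries, so its SE between the BDL groups may be too small. The median approximate SD of the 10 was 1.29 on the log2 scale, and that of all genes kept was 0.58.

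The means and the highest library also limit what any single library can hold. From these alone, the day 0 and BDL day 3 libraries cannot overlap for *Dpt* and *Fbln1* (2 of 10, beside 1.82% of all genes), and the day 0 and BDL day 14 libraries cannot overlap for *Dpt* (1 of 10, beside 1.49%). With the geometric mean as a further limit, added after the table had been seen, this held on BDL day 3 for *Dpt*, *Fbln1*, *Fbln5*, *Loxl1* and *Mfap4* (5 of 10, beside 3.00%). On BDL day 14 it held for *Dpt* and *Fbln5* (2 of 10, beside 3.34%). No *Dpt* library of day 0 can lie below 75.5, whereas none of BDL day 3 can exceed 0.572 and none of BDL day 14 can exceed 26.4. The corresponding limits of *Fbln5* were 11.8, 2.20 and 2.64. For *Mfap4* the lowest day 0 library was at least 3.24, and the limits of the BDL groups were 0.466 and 8.95. *Fbln1* had limits of 3.65, 1.22 and 9.03, and *Loxl1* of 0.815, 0.583 and 9.83. For *Eln*, *Fbln2*, *Fbn1*, *Lox* and *Mfap5* an overlap on BDL day 3 remained possible, with *Eln* limits of 0.675, 5.13 and 17.0.

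**Figure D3:**
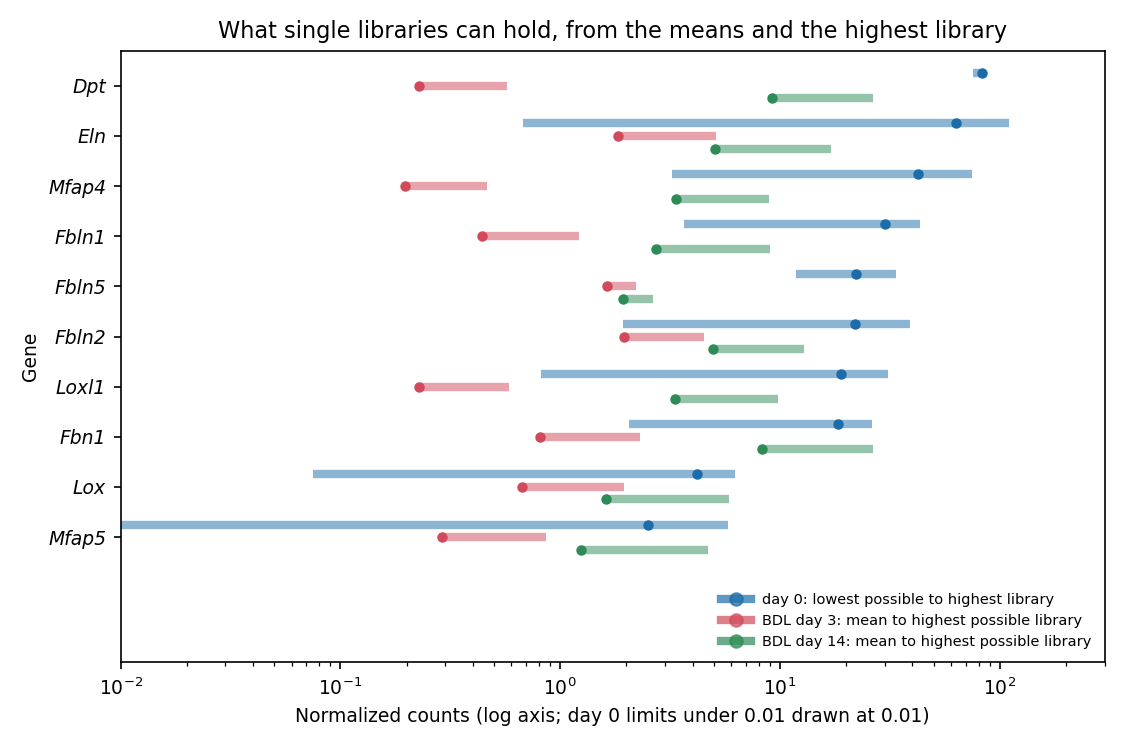
Normalized counts (horizontal log axis) that single libraries can hold for each of the 10 genes, ordered by day 0 mean. Points are the authors' group means. Blue bars run from the lowest possible day 0 library to the highest library in the table, and red (BDL day 3) and green (BDL day 14) bars from the group mean to the highest possible library. The bars do not overlap on BDL day 3 for *Dpt*, *Fbln1*, *Fbln5*, *Loxl1* and *Mfap4*, and *Dpt* day 0 libraries lie between 75.5 and 85.9.

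The other genes of the pathway were taken from lists of known function. Of 20 further elastic fibre genes (fibrillins, microfibril proteins, fibulins, emilins, latent TGF-beta binding proteins, lysyl oxidases and processing enzymes), 18 met the minimum. On BDL day 3, 17 of the 18 were lower than at day 0 by over 1.5-fold (29.2% of all genes). In the same comparison 1 was higher, and the median log2 ratio was -2.49. *Ltbp4*, a latent TGF-beta binding protein of elastic fibres, had means of 114, 7.29 and 38.3, and *Pcolce*, an enhancer of procollagen processing, had 27.4, 2.00 and 5.92. *Fbln7* was at the floor in both BDL groups and lay at least 14.8-fold and 17.7-fold below its day 0 mean of 4.32. It met the minimum only through that mean, so nothing is read from its being lower. The gene that was higher was *Emilin2*, which encodes an elastin microfibril interface protein, with means of 62.6, 150 and 130 and log2 ratios to day 0 of 1.26 ± 0.47 and 1.05 ± 0.44. Its relative *Emilin1* had means of 43.2, 16.5 and 37.0. By BDL day 14, 13 of the 18 were lower (28.8% of all genes) and 1 higher than at day 0 (median -1.45). Against BDL day 3, 12 were higher (21.2% of all genes) and 0 lower.

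Among 12 other genes of the collagen fibril surface, 11 met the minimum. On BDL day 3, 10 of the 11 were lower than at day 0 by over 1.5-fold (29.2% of all genes). In the same comparison 0 were higher, and the median log2 ratio was -4.80. *Dcn* (decorin, the partner of dermatopontin) had means of 177, 6.35 and 21.6, and its log2 ratios to day 0 were -4.80 ± 0.36 and -3.03 ± 0.34. *Lum* (lumican) was at the floor on BDL day 3, at least 110-fold below its day 0 mean of 32.1. *Col14a1*, a collagen that decorates fibrils, went from a mean of 43.9 to 2.77 and 22.5. By BDL day 14, 9 of 11 were lower (28.8% of all genes) and 1 was higher than at day 0 (median -2.81). The higher gene was *Vcan*, the large proteoglycan versican, with means of 1.09, 0.993 and 5.01. All 11 were higher on BDL day 14 than on BDL day 3 by over 1.5-fold (21.2% of all genes). For *Ecm2* (1.09 ± 1.16) and *Ogn* (1.69 ± 1.43) this was by less than 2 approximate SE.

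Among genes with a day 0 mean of at least 10, the 5 nearest to the median pair of log2 ratios of the 10 genes (-4.80 and -2.84) were *Ccdc3*, *Dcn*, *Fmo2*, *Col6a1* and *Cped1*. Their Euclidean distances on the log2 scale were 0.18, 0.19, 0.20, 0.26 and 0.32. *Col6a1* encodes a chain of the microfibrillar collagen VI and had means of 58.6, 1.99 and 6.87. *Fmo2*, a flavin-containing monooxygenase, had means of 27.9, 0.905 and 4.25. This likeness is measured over 3 group means only.

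Markers of several mesenchymal cell types were lower together with these genes. Beside the counts that follow, 29.2% of all genes were over 1.5-fold lower on BDL day 3 and 28.8% on BDL day 14. All 10 smooth muscle and pericyte markers were lower by over 1.5-fold at both times, with median log2 ratios to day 0 of -6.19 and -3.83. With the genes at the floor set to their bounds, the BDL day 3 median was -5.80. Their summed mean was 723 normalized counts at day 0, 12.4 on BDL day 3 and 53.6 on BDL day 14. *Cnn1*, *Lmod1*, *Notch3* and *Cspg4* were at the floor on BDL day 3. These genes met the minimum only through their day 0 means of 27.1, 17.8, 6.60 and 3.46, so nothing is read from their being lower. *Myh11*, the smooth muscle myosin heavy chain, had means of 96.0, 0.982 and 3.26. The portal fibroblast list summed to 510, 123 and 226, with 9 of 9 genes lower by over 1.5-fold on BDL day 3 and 6 of 9 on BDL day 14. Without *Gas6* the sums were 334, 70.7 and 71.6, of which *Ly6a* held 226, 55.2 and 29.7. From BDL day 3 to BDL day 14, 6 of the 9 genes were higher by over 1.5-fold (21.2% of all genes) and 3 lower (share of all genes not counted). In that list, *Clec3b* was at the floor on BDL day 3, and the defining gene *Gli1* was at the floor at day 0 and BDL day 3. *Entpd2* (means 3.94, 0.642 and 1.68) and *Thy1* (29.8, 7.06 and 4.01) were detected. The hepatic stellate cell list summed to 286, 177 and 216, with 7 of 9 genes lower at each time. *Hgf* was the gene of that list that was higher by over 1.5-fold, with means of 3.73, 10.8 and 22.1. *Ecm1* held 108, 155 and 154 of the sum, and without it the sums were 178, 22.2 and 62.5. *Lrat*, the retinol-esterifying enzyme of stellate cells, had means of 6.14, 0.590 and 0.173, the last at the floor. Several genes of the portal fibroblast and stellate cell lists, among them *Pdgfra*, *Lrat*, *Reln* and *Hand2*, met the minimum only through day 0. Nothing is read from their being lower. The part of each of these cell types in the levels of the elastic fibre genes was not tested. In these sorted bulk samples, fewer cells of a type and less RNA per cell cannot be told apart.

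**Figure D4:**
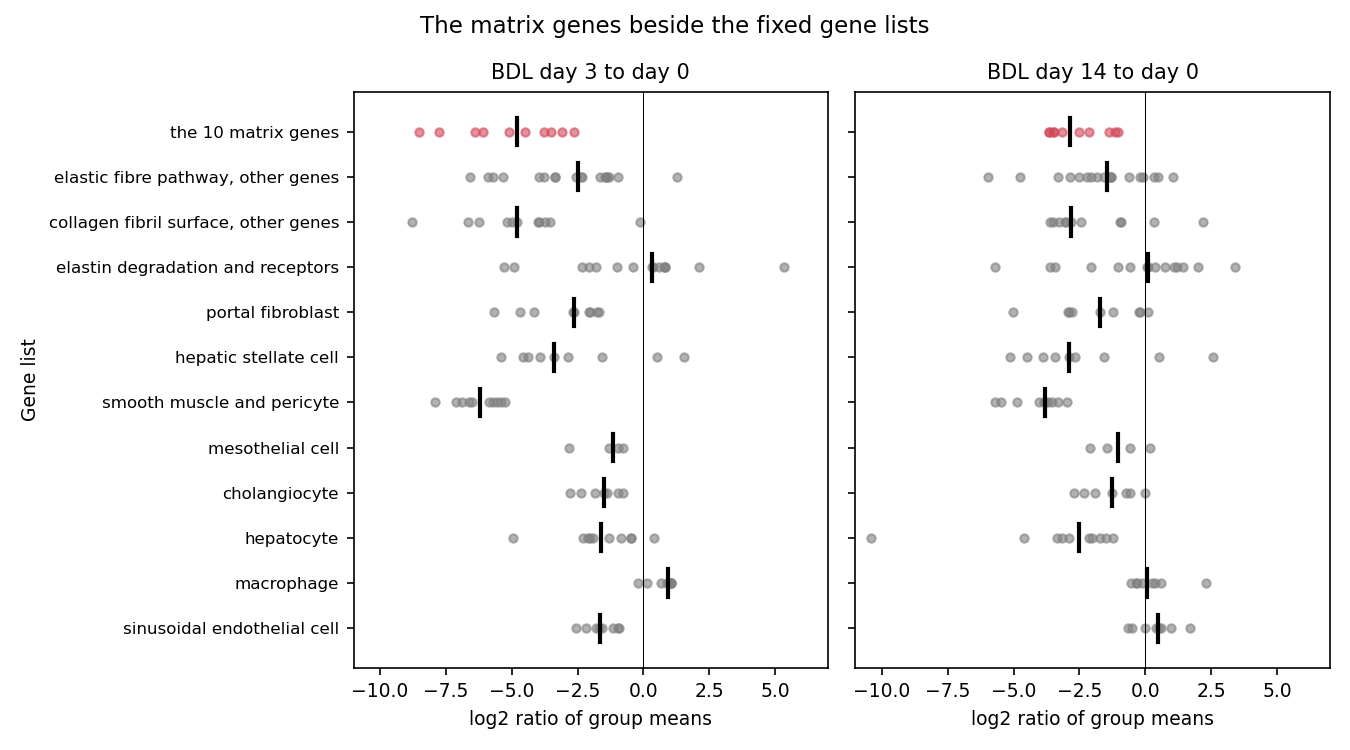
Log2 ratio of the authors' group means to day 0 on BDL day 3 (left) and BDL day 14 (right), for the 10 matrix genes (red) and for the genes of each list that met the minimum (grey). Each point is 1 gene and each vertical bar is the median of the list. The smooth muscle and pericyte list lies lowest at both times, with medians of -6.19 and -3.83, and the macrophage list lies highest on BDL day 3 with 0.95.

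Markers of other cell types had other patterns. Macrophage markers, with sums of 10290, 19549 and 19301, included 6 of 8 genes higher by over 1.5-fold on BDL day 3. On BDL day 14, 1 of 8 was higher than at day 0 and 5 of 8 were lower than on BDL day 3. The shares of all genes that were higher than at day 0, or lower on BDL day 14 than on BDL day 3, were not counted. Without *Lyz2* the sums were 8010, 14989 and 8101. The label describes hepatic progenitor cells and their progeny. The cholangiocyte list, which includes *Prom1* (6.66, 0.956 and 1.76), summed to 71.4, 29.9 and 40.1. Of its genes, 7 of 7 were over 1.5-fold lower on BDL day 3 (29.2% of all genes). Hepatocyte markers summed to 3668, 1038 and 425, mesothelial markers to 38.4, 19.8 and 23.7 (16.9, 7.09 and 9.41 without *Krt19*, which the cholangiocyte list shares), and sinusoidal endothelial markers to 997, 347 and 1517. For the sinusoidal endothelial list, 8 of 8 genes were lower on BDL day 3 (29.2% of all genes). On BDL day 14, 7 of 8 were higher than on BDL day 3 (21.2% of all genes). Among the elastic fibre genes, 9 of 10 were over 1.5-fold higher on BDL day 14 than on BDL day 3, beside 21.2% of all genes, and the part of endothelial cells in this was not tested. *Wt1*, the defining mesothelial gene, did not meet the minimum, with means of 0.514, 0.0729 and 0.175.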

How the data were processed

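GFP(+) liver cells of 3 groups were sequenced as mRNA. Reads were trimmed by the authors, mapped to mm10 by STAR (2.6.1d in the submitters' processing notes, with another version in the methods), quantified on GENCODE M18 in Partek Flow and scaled by the upper quartile method. The deposited signal values are least squares means of the normalized counts of each group and the mean over all libraries. The deposited columns of the highest library and the geometric mean were handled as scores. The table has 0 columns of values per named library. Its columns of the authors' comparisons (p-values, FDR, ratios, fold changes and limits) were not used.

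Weighting the group means by 3, 3 and 4 libraries returned the overall mean of the table to within 0.469% in nearly all genes. The labels describe 12 samples, and which 2 of BDL day 14 were left out is not stated in the sources used here. Genes with a mean of at least 1 (a sum of at least 10 over 10 libraries) were kept. Ratios of group means were computed in Python 3.11.15 with pandas 2.3.3, with no test. The spread estimate and the limits on single libraries were tested on simulated data, where the estimate came back slightly too small for widely spread genes. In GENCODE M21, 16950 symbols were found, of which 16926 (99.9%) matched in coordinates on GRCm38 once the end in the table was moved by 1 base. The genes named are the 10 genes, genes of the fixed lists and the 5 genes nearest in pattern. The 10 genes and the lists were chosen with earlier results of these data known. The promoter window was cut to 250 bases after a first search that took in the 50 bases behind the start. The alternatives were pseudocounts of 1 and 0.1, median-ratio scaling, scaling to the same sum, no filter, a mean of at least 10 and leaving out the highest day 0 library of each gene.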

Additional observations from a re-analysis of the deposited data

How the results depend on the processing

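No paired analysis was possible because the table holds group means and no replicate numbers, and for the same reason no named library could be left out in turn. Of 150 alternative values for single genes, 138 moved by less than 1 approximate SD, among them 14 that could not move by construction, and 60 of the 150 came from scalings that shift all genes alike. Another 11 moved by more in the same direction, and 1 reversed: *Mfap5* on BDL day 14 against day 0, with a log2 ratio of 0.49 without its highest day 0 library. With a pseudocount of 1, 2 genes were higher by over 4-fold on BDL day 14 than on BDL day 3. A mean of at least 10 left *Dpt*, *Eln*, *Fbln1* and *Mfap4*, with a median log2 ratio of -6.92 on BDL day 3. Of these, 4 were past 1.5-fold and 4 past 4-fold against day 0 in each BDL group, and 4 and 3 between the BDL groups. All 4 met that minimum only through their day 0 means. Nothing is read from their counts against day 0 or from the lower median. With the geometric mean as a further limit, 5 genes could not overlap between day 0 and BDL day 3, and 2 between day 0 and BDL day 14. Scaling to the same sum moved the median of all genes by 0.13 and 0.33 on the log2 scale against day 0 and by 0.20 between the BDL groups, and the ratios of the 10 genes kept their direction. The number of reads per library is unknown, so values near the floor carry a counting error that could not be given.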

Other observations

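A further list held 15 genes that break down elastin, hold such enzymes in check or bind elastin peptides. Of these, 6 were lower (29.2% of all genes) and 6 higher (share of all genes not counted) by over 1.5-fold on BDL day 3 than at day 0. The median log2 ratio was 0.34. On BDL day 14, 5 were lower (28.8% of all genes) and 6 higher (share of all genes not counted), with a median of 0.10. The highest log2 ratio belonged to *Mmp12*, the macrophage elastase, with authors' means of 6.62 normalized counts before BDL and of 264 and 69.7 on days 3 and 14 after it (log2 ratios to day 0 of 5.32 ± 1.06 and 3.40 ± 0.99, with the approximate SE). *Ctss* (cathepsin S), a lysosomal protease that can cut elastin, had means of 1420, 2430 and 3230, and *Lgals3* (galectin-3), which binds elastin peptides, had 356, 1550 and 1430. *Ctsa* and *Neu1*, components of the elastin receptor complex, had means of 699, 1220 and 904 and of 75.2, 134 and 79.3.

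*Mmp2* went the other way, with means of 26.5, 0.676 and 6.26 and log2 ratios to day 0 of -5.29 ± 0.97 and -2.08 ± 0.90. *Elane*, the neutrophil elastase, was at the floor in both BDL groups, at least 12.3-fold and 14.8-fold below its day 0 mean of 3.60. It is among the genes counted as lower, but it met the minimum only through that mean, so nothing is read from its being lower. The elastase inhibitors *Serpina1a* (353, 102 and 28.9) and *Serpina1b* (372, 89.7 and 35.0) are near-identical copies, so their separate values are uncertain. *Timp1*, an inhibitor of metalloproteinases, had means of 6.40, 1.26 and 4.30.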
